A study of Mus musculus with 4 samples.

Results

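Cells with a high mitochondrial share were those with at least 500 detected genes and more than 10% of their counts from the 13 genes whose names start with mt-. They were selected on measured values, namely the mitochondrial share of raw counts and the number of genes detected. There were 1214 of them among the 10090 cells in the table, and the 8876 cells at 10% or less (low-share cells) were the comparison. All came from day 9 mouse embryoid bodies, cultured clumps in which embryonic stem cells differentiate. 2 libraries were made from stem cells pulsed with DUX, a transcription factor of the early embryo, and 2 from control stem cells, given as biological replicates. Expression of DUX itself was not analysed here. The labels give no strain, promoter, inducing agent or clone for either group, so limits of the stem cell lines as models are not given in the sources used here. RNA was counted per droplet with the 10x Genomics method as unique molecular identifiers (UMIs), short tags that let copies of 1 captured molecule be counted once.

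The mitochondrial genome encodes a few subunits of the respiratory chain and of ATP synthase, while all other subunits come from nuclear genes and are imported. Heart muscle and other tissues with high energy demand hold much mitochondrial RNA. In droplet data a high mitochondrial share is also used as a sign of a cell that lost cytoplasmic RNA, and such cells are often removed before analysis.

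The high-share cells were not a cell type of their own. They were spread over all 19 classes formed by clustering on nuclear genes, from cardiomyocyte-like to trophoblast-like cells. The part of the measurements that the rule did not use is the nuclear RNA, so nuclear genes are given below as counts per 1000000 nuclear counts (CPM), with the mt- genes outside the total. CPM values of single genes use library sizes scaled by TMM, a method that sets the typical gene to no change. Values listed for 4 libraries stand in the order DUX-pulsed replicates 1 and 2, then control replicates 1 and 2.

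High-share cells numbered 175 of 2238 in DUX-pulsed replicate 1 and 255 of 1608 in DUX-pulsed replicate 2, against 395 of 3219 in control replicate 1 and 389 of 3025 in control replicate 2. Their share was 7.82% (exact 95% binomial interval 6.74 to 9.01) and 15.9% (14.1 to 17.7) in the DUX-pulsed libraries, and 12.3% (11.2 to 13.5) and 12.9% (11.7 to 14.1) in the controls. These intervals cover counting error only. The DUX-pulsed pair lay on both sides of the control pair. The means were 11.8% ± 5.68 against 12.6% ± 0.416 (SD, n = 2 each), and an exact two-sided permutation test gave p = 1, where the smallest p that 2 against 2 libraries allow is 0.333. Without DUX-pulsed replicate 1 the difference was 3.29 percentage points, and without DUX-pulsed replicate 2 it was -4.75. The order of the groups depended on where the line was drawn. Over 8% the share was 18.3% ± 7.59 in DUX-pulsed and 30.5% ± 2.27 in control libraries, while over 15% it was 4.81% ± 2.25 and 2.80% ± 0.440. Neither difference can pass a test with these numbers of libraries (exact p = 0.333 for both).

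High-share cells of the DUX-pulsed libraries were shallow, and those of the controls much less so. Their median UMI count was 8184 and 4729 in DUX-pulsed replicates 1 and 2 and 21891 and 23471 in the controls, against 27621, 27260, 30403 and 28321 UMIs in low-share cells. Median nuclear UMIs were 6986, 3959, 19305 and 20786 in high-share cells, against 26444, 25902, 28422 and 26382 in low-share cells. The mitochondrial counts moved differently. After the DUX pulse, high-share cells had median mitochondrial UMIs of 1113 and 762, and low-share cells of 1057 and 1037. In the controls they were 2712 and 2767 in high-share cells, against 1922 and 1841 in low-share cells. In the DUX-pulsed libraries the high share thus stood beside few nuclear counts, and in the controls beside both fewer nuclear and more mitochondrial counts. These values are a description with no test, since total counts are the denominator of the rule. Cells under 5000 UMIs made up 34.3%, 52.2%, 11.9% and 14.7% of high-share cells, against 7.76%, 21.8%, 14.1% and 17.9% of low-share cells.

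**Figure D1:**
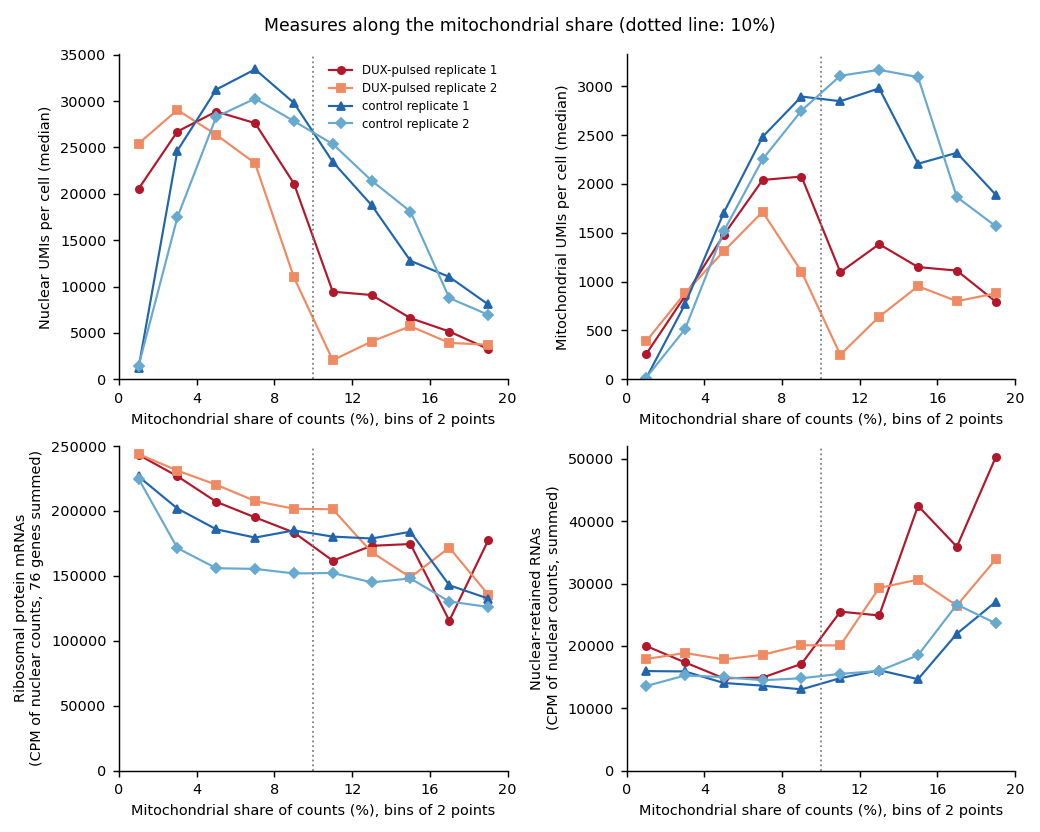
Median nuclear UMIs, median mitochondrial UMIs, summed CPM of 76 ribosomal protein mRNAs and summed CPM of nuclear-retained long RNAs (y axes) in cells binned by mitochondrial share of counts (x axis, %, bins of 2 points), with 1 line per library and a dotted line at 10%. In the highest bin the ribosomal protein sum was 135610 CPM in DUX-pulsed replicate 2 and 126057 CPM in control replicate 2, and the nuclear-retained sum was 50251 CPM in DUX-pulsed replicate 1.

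The 10% line fell within a gradual range in 3 libraries. In the bin just inside it, at 10 to 11%, the median cell had 10825, 2055, 24307 and 27247 nuclear UMIs. In the bin just outside, at 9 to 10%, it had 14798, 11816, 27547 and 26724. DUX-pulsed replicate 2 stood apart here: its 48 cells at 10 to 11% had a median of 236 mitochondrial UMIs, against 1303 for its 51 cells at 9 to 10%. Further inside, the nuclear RNA kept shifting. Ribosomal protein mRNAs summed to 177215, 135610, 132500 and 126057 CPM in cells at 18 to 20%, against 161663, 201268, 180212 and 152191 CPM in cells at 10 to 12%, so the sum was lower at the top of the range in 3 of 4 libraries. Nuclear-retained long RNAs summed to 50251, 33872, 27056 and 23613 CPM at 18 to 20%, against 25487, 20068, 14823 and 15508 CPM at 10 to 12%, and were higher there in all 4. The highest bin held 21, 34, 25 and 41 cells.

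At equal depth the high-share cells had slightly more nuclear genes detected. After each cell was thinned to 2000 nuclear UMIs, the median number of nuclear genes detected was 1116, 1170, 1187 and 1220 in high-share cells, against 1083, 1093, 1156 and 1212 in low-share cells. Before thinning, all genes together numbered 2668, 1821, 4924 and 5241 per high-share cell, against 5151, 5161, 5641 and 5758 per low-share cell. High-share cells were above low-share cells in 4 of 4 libraries once thinned, by 37.1 genes on average (SD 28.9). The mean difference was 13.25 genes when thinned to 1000 nuclear UMIs and 81.0 when thinned to 5000. The exact two-sided sign-flip permutation test over libraries gave p = 0.125, the smallest that 4 libraries allow. Thinning left out 25, 95, 26 and 31 high-share cells and 111, 218, 313 and 380 low-share cells that were too shallow.

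Within the mitochondrial RNA itself, a quantity the rule did not use, the 13 genes kept nearly the same proportions. mt-Atp6, a subunit of ATP synthase, took 20.1%, 17.0%, 22.6% and 19.5% of mitochondrial counts in high-share cells, against 18.97%, 15.6%, 21.6% and 18.3% in low-share cells. mt-Co1, the catalytic subunit of cytochrome c oxidase, took 14.1%, 16.8%, 10.03% and 11% in high-share cells, against 14.9%, 18.3%, 10.4% and 11.9% in low-share cells. The proportion of mt-Atp6 was higher in high-share cells in 4 of 4 libraries and that of mt-Co1 lower in 4 of 4. mt-Nd6, which lies on the opposite strand to the other mitochondrial protein genes, had the widest difference, with 0.169%, 0.222%, 0.0449% and 0.0546% in high-share cells against 0.218%, 0.249%, 0.0705% and 0.0728% in low-share cells. Its mean log2 difference was -0.40 ± 0.20 (SD, n = 4). In cells over 15% that difference was -0.11, with mt-Nd6 higher in control replicate 1, and mt-Nd3 (-0.14) and mt-Nd1 (-0.12) lay further below 0. The proportions of mt-Nd5 and mt-Nd3, subunits of complex I, were also lower in all 4 libraries, by -0.12 and -0.11 on the log2 scale. For these 5 genes the exact permutation p was 0.125 and 0.325 after Benjamini-Hochberg adjustment over the 13 genes, so none passed.

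The nuclear RNA of high-share cells was then compared with that of low-share cells of the same library. Counts were summed per library and class of cells, which gave 8 sums, and tested with edgeR's quasi-likelihood test with the library as a block. Of 16242 nuclear genes tested, 220 were higher in high-share cells (1.35%) and 521 were lower (3.21%) at a Benjamini-Hochberg adjusted p under 0.05. At an unadjusted p under 0.05 there were 4218. The 741 genes called either way were 4.56% of those tested, and 729 of them had the same sign in all 4 libraries (98.4%), against 36.4% of all genes tested. A test with the library as a block favours genes of 1 sign, so that agreement is not separate support for the calls. The split between higher and lower depends on the scaling. With the plain sum of nuclear counts in place of TMM, the median of all genes moved to 0.13 on the log2 scale and 592 genes were higher and 95 lower, so directions below are relative to the typical gene. Leaving out a library moved the counts by more than 1.5 times in each case. They were 35 higher and 59 lower without DUX-pulsed replicate 1, 14 and 67 without DUX-pulsed replicate 2, 46 and 99 without control replicate 1, and 414 and 859 without control replicate 2. In cells with at least 5000 UMIs, 43 genes were higher and 123 lower.

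Among genes named by size, Tfap2c, Lars2 and Gata2 had the largest rises. Tfap2c (chromosome 2, 172549593 to 172558622 on the plus strand, mm10), which encodes the trophoblast transcription factor AP-2 gamma, had 19.8, 60.6, 16.8 and 2.27 CPM in high-share cells, against 10.6, 7.55, 2.64 and 1.02 CPM in low-share cells. Within each library the high-share value was the larger, which the naming rule required. The fitted log2 fold change was 2.11 (SE 0.31, adjusted p = 0.011). Gata2, a transcription factor of trophoblast, endothelium and blood progenitors, was higher by 1.42 (SE 0.27, adjusted p = 0.0266), a call that was lost without DUX-pulsed replicate 2 (0.99, adjusted p = 0.123 with edgeR). The imprinted placental gene Sfmbt2 was higher by 1.25 on the log2 scale, and the extraembryonic genes Rhox5, Trap1a and Peg10 by 0.93, 0.75 and 0.68. Lrp2, the endocytic receptor megalin of absorptive endoderm, had 174, 15.4, 55.6 and 32.4 CPM in high-share cells, against 65.9, 14.2, 26.3 and 16.6 CPM in low-share cells (log2 1.004, SE 0.14, adjusted p = 0.00949). DUX-pulsed replicate 2 showed little of that difference. Cdh1, the epithelial adhesion molecule E-cadherin, had 118, 111, 85.5 and 109 CPM in high-share cells, against 48.3, 46.7, 63.6 and 78.9 CPM in low-share cells. There every high-share value lay above every low-share value (log2 0.83, SE 0.14, adjusted p = 0.0197).

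Other rises were in genes not tied to a lineage. Lars2 (chromosome 9, 123366927 to 123462666 on the plus strand), which encodes the mitochondrial leucyl-tRNA synthetase, had 1064, 176, 260 and 80.3 CPM in high-share cells, against 195, 62.2, 118 and 51.1 CPM in low-share cells (log2 1.44, SE 0.22, adjusted p = 0.0121). Its level differed widely between libraries. In each the high-share value was the larger, which the naming rule required. Abca1, which exports cholesterol, Insr, the insulin receptor, and Clcn7, a lysosomal chloride transporter, were higher by 0.88, 0.68 and 0.68. The predicted genes Gm42418 and Gm26917 were looked up after their values had been seen. Gm42418 had 13807, 3659, 4445 and 1900 CPM in high-share cells, against 3757, 1637, 2550 and 1482 CPM in low-share cells (log2 1.05, SE 0.20, adjusted p = 0.0274). Gm26917 was higher by 0.82 (SE 0.12, adjusted p = 0.0121). No transcript of Lars2, Gm42418 or Gm26917 held a run of 30 bases shared with a mitochondrial transcript, which was searched for in GENCODE vM21. Cep295, with a run of 34 bases shared with mt-Ty, was the 1 gene of the table that did, and it was not called. The search covered mitochondrial transcripts only, so sequence shared with other RNAs was not tested. Lars2, Gm42418 and Gm26917 were also leading genes of cluster 19, a cluster with a median of 1054 UMIs.

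Globin genes led the falls. Hbb-bs, an adult beta globin (chromosome 7, 103826534 to 103828096 on the minus strand), had 0.941, 0.386, 6.71 and 1.13 CPM in high-share cells, against 70.5, 38.8, 76.5 and 63.8 CPM in low-share cells. The groups did not overlap, and the log2 fold change was -4.49 (SE 0.29, adjusted p = 5.47e-05). Embryonic Hba-x and Hbb-y and the alpha globins Hba-a1 and Hba-a2 fell by between 3.40 and 3.92 on the log2 scale, and Alas2, the erythroid enzyme of haem synthesis, by 3.21. Globin paralogs are near-identical in sequence, and the way reads were shared between them is not given in the sources used here. Pf4, a platelet chemokine, fell by 1.76 (SE 0.33), with 24.5, 115, 142 and 1.47 CPM in high-share cells and 179, 306, 223 and 25.4 CPM in low-share cells. Outside the blood lineages, Tagln, an actin-binding protein of smooth muscle, had 46.1, 119, 74.5 and 43.0 CPM in high-share cells, against 252, 299, 131 and 148 CPM in low-share cells (log2 -1.53, SE 0.19, adjusted p = 0.00772). All high-share values lay below all low-share values. Mab21l2 fell by 1.22, Rgs10, a regulator of G protein signalling, by 1.09, and Upk3b, a marker of mesothelium, by 1.09 (adjusted p = 0.0492).

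**Figure D2:**
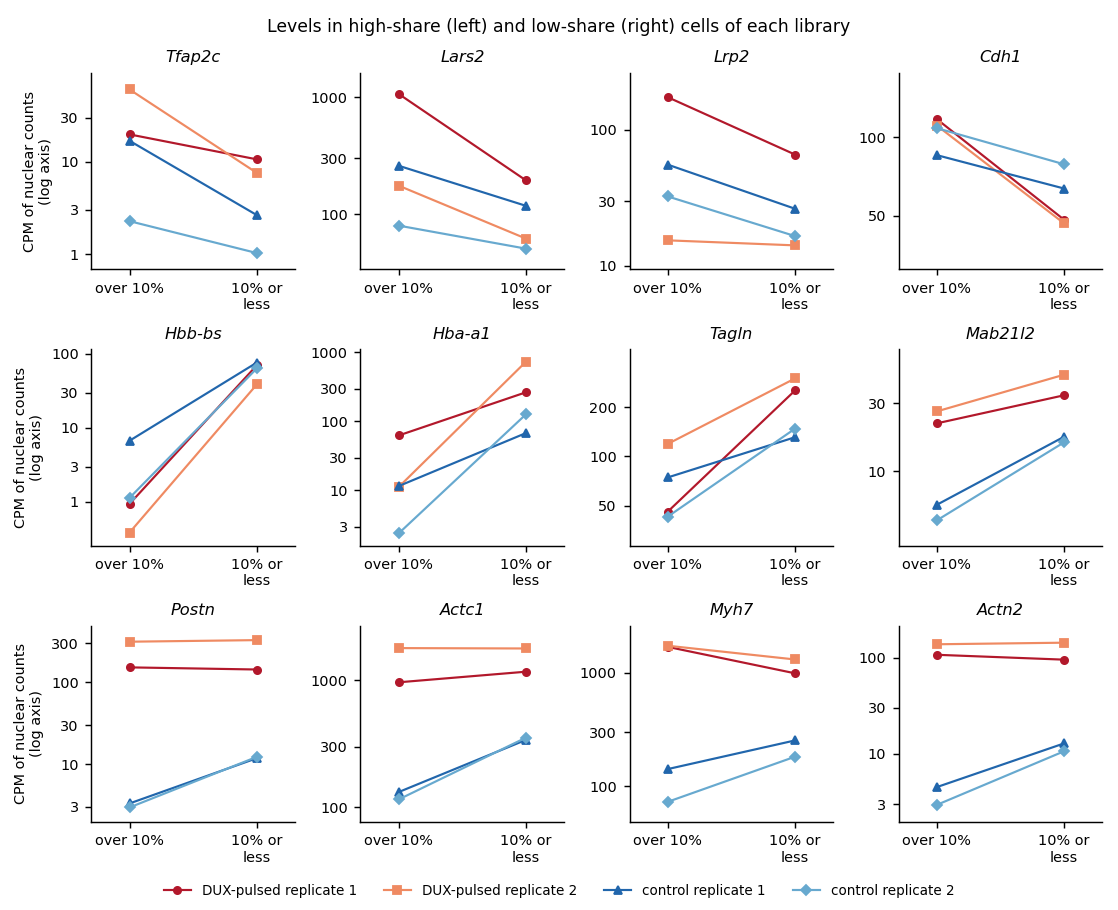
Levels of 12 named genes (y axis, CPM of nuclear counts over TMM-scaled library sizes, log axis) in high-share cells (left) and low-share cells (right) of each library, 1 line per library. Tfap2c, Lars2, Lrp2 and Cdh1 slope down to the right in every library and the globins, Tagln and Mab21l2 slope up, as the rule for naming these genes required. Postn, Actc1, Myh7 and Actn2 slope up in both controls, by more than in either DUX-pulsed library.

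Genes of mitosis were lower together. Of 20 G2 and M phase genes, 18 fell and 0 rose, where 3.21% of all genes fell, and their median log2 fold change was -0.52, against -0.01 over all genes tested. Ube2c, a ubiquitin-conjugating enzyme of mitotic exit, had 151, 170, 174 and 141 CPM in high-share cells, against 366, 316, 285 and 260 CPM in low-share cells (log2 -0.93, SE 0.10, adjusted p = 0.00772). Cdk1, the kinase that drives entry into mitosis, had 122, 111, 139 and 130 CPM against 249, 192, 209 and 207 CPM (log2 -0.76, SE 0.09). In both genes the high-share values lay wholly below the low-share values. Mki67 was 1 of the 2 members not called, at -0.15. Of 20 S phase genes, 4 fell, Cdc45, Gins2, Tyms and Rrm2, with a list median of -0.25. Under the plain sum the G2 and M median was -0.37 and 10 of 20 fell. With 1 library left out, 10 fell without DUX-pulsed replicate 1, DUX-pulsed replicate 2 or control replicate 1, and 12 without control replicate 2. In a limma fit that re-weights low-share cells to the cluster mix of the high-share cells, the median was -0.17 and 4 fell. That fit used CPM without TMM, and limma without re-weighting called 1 gene lower of all 16242 tested. The change from 18 to 4 thus mixes method, scaling and cell mix, which cannot be told apart here.

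Medians were negative for lists of abundant cytoplasmic messages and positive for long RNAs kept in the nucleus. Tubulins made up most of the 8 of 20 cytoskeletal and other abundant cytosolic genes that fell, with Tuba1a at -0.63, Tuba1b at -0.59 and Tubb4b at -0.54 (list median -0.41, none rose). All 76 ribosomal protein genes had negative values, from -0.47 to -0.19 with a median of -0.38, but 0 passed the adjusted threshold with edgeR, 74 had an unadjusted p under 0.05, and DESeq2 called 74 lower. Without control replicate 2, edgeR called 33 lower. Their sum was 163640, 175901, 176913 and 148069 CPM of all nuclear counts in high-share cells, against 214916, 222698, 185327 and 157207 CPM in low-share cells. The DUX-pulsed libraries thus differed by more than the controls. Glycolytic enzymes were also lower, with Pgk1, Pgam1, Tpi1, Aldoa, Eno1 and the mitophagy receptor Bnip3 as the 6 of 24 glycolysis and hypoxia genes that fell. Of 9 nuclear-retained RNAs tested, Mirg (0.51) and Tug1 (0.41) rose and 0 fell, with a median of 0.39. Their summed level was 30881, 25737, 15795 and 16879 CPM in high-share cells, against 16356, 18466, 13872 and 14733 CPM in low-share cells, higher in 4 of 4 libraries. Malat1 alone, the most studied of them, did not pass (log2 0.29, adjusted p = 0.255).

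No nuclear gene of the respiratory chain rose in high-share cells. Over all genes tested 1.35% rose and 3.21% fell, so in lists this small the absence of rises is near the share over all genes. Of 37 complex I subunits 6 fell, among them Ndufab1 (-0.44), Ndufs4 (-0.39) and Ndufb10 (-0.38). Of 14 subunits of complexes II and III 3 fell, Uqcrb, Sdhb and Uqcrfs1. Of 14 subunits of ATP synthase 1 fell, Atp5c1 (-0.39), and of 14 subunits of complex IV 0 did, with 9 at an unadjusted p under 0.05 and Cox7a2l nearest to the threshold (-0.36, adjusted p = 0.0553). The list medians lay between -0.27 and -0.22, and stayed below 0 under the plain sum, where none of these genes was called by edgeR. Among 24 genes that copy, process and maintain mitochondrial DNA and RNA, 2 fell, and both encode parts of mitochondrial RNase P: Hsd17b10 (log2 -0.59, SE 0.10, adjusted p = 0.0197) and Trmt10c (-0.45, SE 0.11). Hsd17b10 had 110, 92.6, 142 and 132 CPM in high-share cells, against 195, 164, 194 and 165 CPM in low-share cells, with no overlap. No mitochondrial chaperone or protease was called, of 12, with 3 at an unadjusted p under 0.05. Of 15 fatty acid oxidation genes, Echs1 fell (-0.40).

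Stress lists gave mixed results. In the integrated stress response list of 19 genes, 3 fell, where 3.21% of all genes fell, and 1 rose, where 1.35% did: the amino acid synthesis genes Asns (-0.50), Phgdh (-0.41) and Psat1 (-0.39) fell and Sesn2 (0.54), a stress-induced inhibitor of growth signalling, rose. Of 20 p53 targets and apoptosis genes the death receptor gene Tnfrsf10b rose (0.57, SE 0.13, adjusted p = 0.0427), with 19.3, 25.5, 20.03 and 19.4 CPM in high-share cells against 11.1, 14.9, 12.6 and 17.0 CPM in low-share cells. Of 20 dissociation and immediate early genes Ier5 fell (-0.49). Of 16 endoplasmic reticulum stress genes and 12 heat shock genes edgeR called 0, with 2 and 6 at an unadjusted p under 0.05. The endoplasmic reticulum stress genes summed to 5153, 5087, 4275 and 5502 CPM in high-share cells, against 3896, 3705, 4132 and 4913 CPM in low-share cells, higher in 4 of 4 libraries. The inducible chaperone Hspa1a had 7.06, 236, 3.19 and 2.38 CPM in high-share cells, against 4.54, 3.38, 2.78 and 2.99 CPM in low-share cells, and Hspa1b 3.29, 59.8, 1.76 and 2.04 CPM against 2.63, 2.21, 1.02 and 1.21 CPM. For both genes the high values stood in DUX-pulsed replicate 2. The medians of the stress, fatty acid oxidation, mitochondrial maintenance and chaperone lists lay between -0.13 and 0.11, and several of them changed sign under the plain sum.

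**Figure D3:**
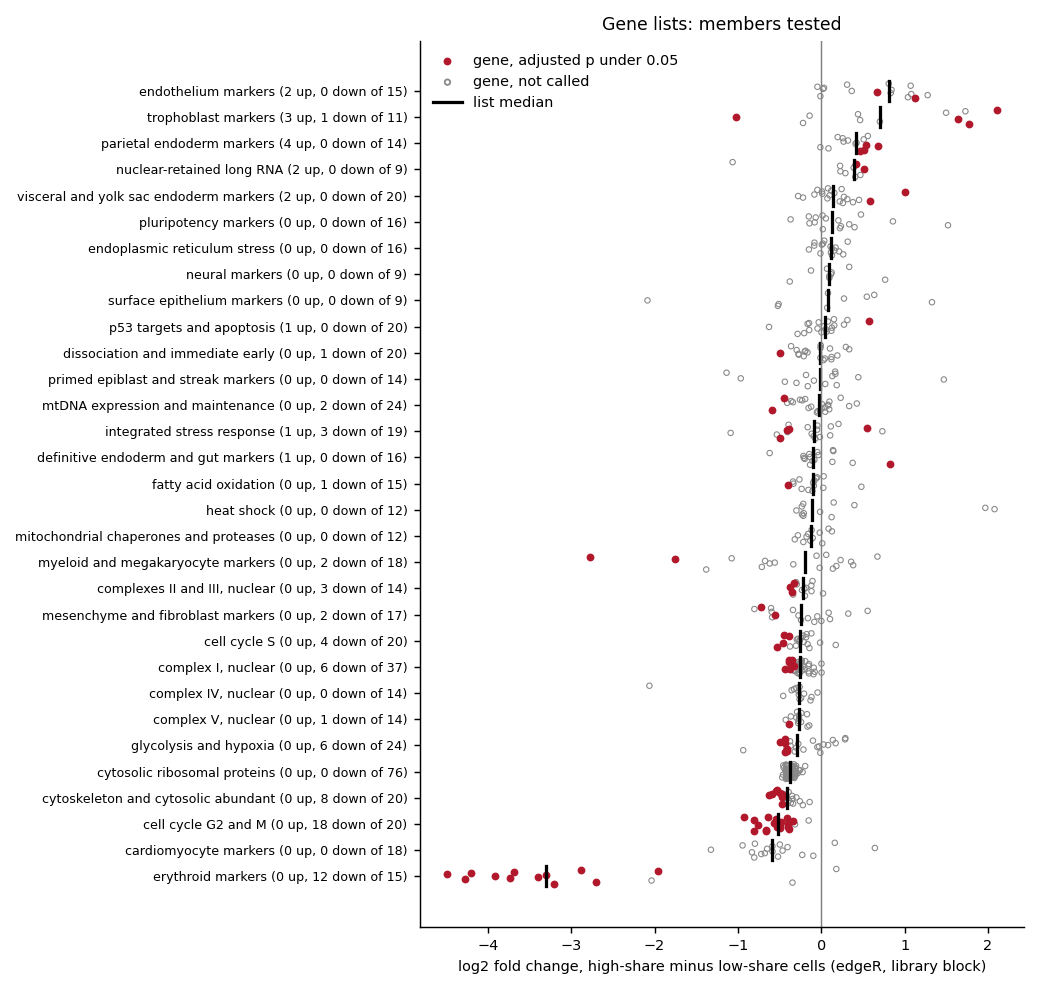
Log2 fold change of each tested member of 31 gene lists (x axis, high-share minus low-share cells), 1 row per list, with called genes in red, others in grey and the list median as a bar. Erythroid markers lie farthest to the left with a median of -3.31, and G2 and M genes sit wholly below 0.

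By list median, erythroid markers were the lowest of the lineages and endothelial markers the highest. In sums over cells, fewer cells of a type and less of its RNA per cell cannot be told apart. Of 15 erythroid markers 12 fell and 0 rose, with a median of -3.31, among them the erythroid transcription factor gene Klf1 (-1.96). Without DUX-pulsed replicate 2, 6 of 15 fell. Their sum was 1167, 366, 436 and 362 CPM in high-share cells, against 2986, 5947, 915 and 1420 CPM in low-share cells. Within the low-share cells that sum was concentrated at the lowest shares, with 17700, 42193, 25168 and 57679 CPM in cells at 0 to 2% and 429, 974, 281 and 322 CPM in cells at 8 to 10%. Low-share cells just under the line were thus above the high-share sum in DUX-pulsed replicate 2 and below it in the other libraries. Of 18 myeloid and megakaryocyte markers the platelet genes Ppbp (-2.78) and Pf4 fell. Trophoblast markers were mixed, with 3 of 11 higher, Tfap2c and Ascl2 (1.78) among them, and Hand1, a transcription factor that heart and mesoderm also use, lower (-1.02). Their list summed to 357, 950, 303 and 196 CPM in high-share cells, against 435, 274, 203 and 199 CPM in low-share cells, higher in 2 of 4 libraries. Parietal endoderm, a basement-membrane-secreting layer of the yolk sac, had 4 of 14 markers higher: Lama1 (0.67), Lamb1 (0.53), Col4a2 (0.51) and Col4a1 (0.47). Their list summed to 9150, 3806, 5753 and 5500 CPM in high-share cells, against 5052, 2980, 4204 and 4609 CPM in low-share cells, higher in 4 of 4 libraries. Of 15 endothelial markers the adhesion molecule Cdh5 (1.13) and the VEGF receptor Flt1 (0.67) rose, with a list median of 0.81. The endothelial list summed to 633, 1154, 976 and 1088 CPM in high-share cells, against 561, 478, 851 and 894 CPM in low-share cells, higher in 4 of 4. Flt1 alone had 200, 262, 324 and 396 CPM in high-share cells, against 127, 91.1, 271 and 323 CPM in low-share cells. It was also a leading gene of cluster 21, led by Rarres1 and Ly6h, with 231 and 218 of its 451 cells from the controls. The list sum is thus not a measure of endothelium-like cells alone. Cdh5 was lower in high-share cells of DUX-pulsed replicate 1 (13.6 against 17.2 CPM), and its call was lost without DUX-pulsed replicate 2 or control replicate 1. Of 20 visceral and yolk sac endoderm markers Lrp2 and Apoa2 (0.59) rose. Apoa2 was lower in high-share cells of DUX-pulsed replicate 2 (42.8 against 44.3 CPM), was at -0.22 over 15%, and was called in no fit that left out DUX-pulsed replicate 1 or either control. Of 16 definitive endoderm and gut markers Cdh1 was the 1 that rose. The re-weighted fit matches the numbers of cells per cluster, but not the counts that each cluster adds to the sum. It gave -2.40 for Hbb-bs (adjusted p = 0.0384 with limma), against -4.46 without re-weighting.

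No marker of 4 other lineages was called: pluripotency (16 tested), primed epiblast and streak (14), neural (9) and surface epithelium (9), with 4, 2, 0 and 2 at an unadjusted p under 0.05. Of 17 mesenchymal markers 2 fell, the intermediate filament gene Vim (-0.73, SE 0.10) and the matrix gene Mfap4 (-0.55). Vim had 745, 954, 280 and 208 CPM in high-share cells, against 1322, 1439, 494 and 332 CPM in low-share cells. It was lower in each library. Of 18 cardiomyocyte markers 0 passed, with 12 at an unadjusted p under 0.05 and a median of -0.59, while their summed level ran in opposite directions in the groups: 11725 and 14975 CPM in high-share cells of the DUX-pulsed libraries, against 9039 and 11366 CPM in their low-share cells, and 1196 and 693 CPM in high-share cells of the controls, against 2047 and 1936 CPM in their low-share cells.

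The genes that rose encoded longer transcripts than those that fell, a description added after the data were seen. The median length of the longest protein-coding transcript, taken from GENCODE vM21, was 5370 bases for genes that rose, 1803 for those that fell and 3074 for all tested genes. A length was found for 91.9% of tested genes. Across 5 equal groups of genes from short to long, the median log2 fold change was -0.23, -0.10, -0.02, 0.07 and 0.15. In the shortest group 11 genes were higher and 247 lower, and in the longest 115 were higher and 19 lower. The rank correlation of length with fold change across 14919 genes was 0.38, where genes of 1 library are not independent of each other. In cells with at least 5000 UMIs the medians ran from -0.21 in the shortest group to 0.12 in the longest.

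**Figure D4:**
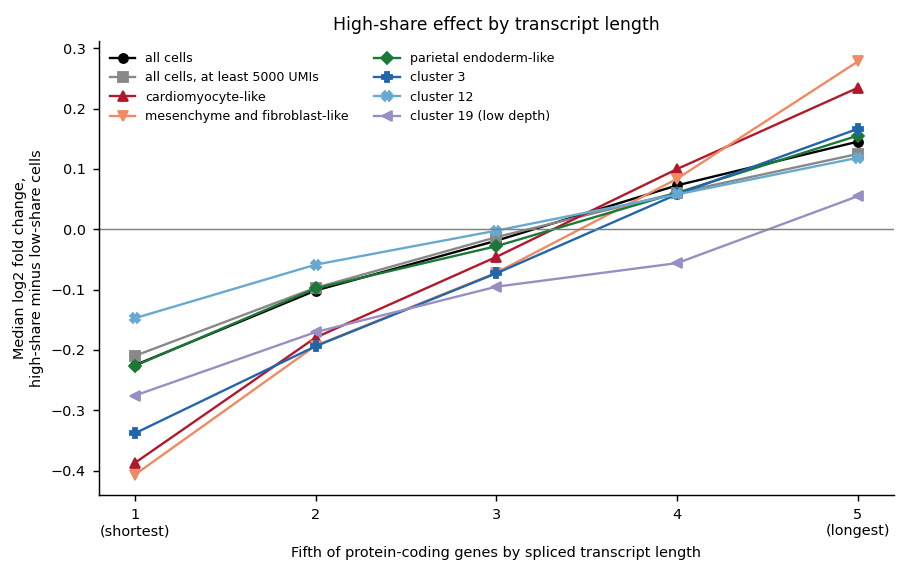
Median log2 fold change of high-share minus low-share cells (y axis) in 5 equal groups of protein-coding genes by spliced transcript length (x axis, shortest to longest), for all cells, for cells with at least 5000 UMIs and within 6 classes. Each line climbs from left to right, most steeply in mesenchyme and fibroblast-like cells, from -0.41 to 0.28.

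Classes of cells held unlike proportions of high-share cells. With all libraries pooled, the proportion was 23.1% in trophoblast-like cells (18 of 78), 14.9% in endothelium-like cells (28 of 188), 13.9% in parietal endoderm-like cells (52 of 375), 11.4% in cardiomyocyte-like cells (117 of 1030) and 8.88% in mesenchyme and fibroblast-like cells (111 of 1250). It was 7% in myeloid and megakaryocyte-like cells (14 of 200), 4.11% in erythroid-like cells (6 of 146) and 3.29% in cluster 9, led by Ghrl and Cdkn2b (10 of 304). The libraries differ in their high share and in their mix of classes, so the pooled order is not the order within a library. Parietal endoderm-like cells were at 9.89%, 16.1% and 24.6% in the first 3 libraries and at 5 of 10 cells in control replicate 2, above the library's own share in all 4. Mesenchyme and fibroblast-like cells, at 6.33%, 11.7%, 8.30% and 11.1%, were below it in all 4. So were erythroid-like cells, at 6.67%, 2.56%, 5% and 0%, the last from 27 cells. Cardiomyocyte-like cells were at 10.3%, 13.8%, 11.3% and 8.16%, above it in DUX-pulsed replicate 1 alone. That class pooled unlike clusters. In cluster 2, led by Tnni3, Myl3 and Ttn, 35 of 308, 29 of 223, 10 of 25 and 4 of 8 cells were high-share. In cluster 20, led by Tdgf1 and Ankrd1, 4 of 90 and 2 of 70 cells of the controls were. In cardiomyocyte-like clusters 5 and 6 the control values were 0 of 15 and 2 of 10, and 3 of 21 and 0 of 10. The DUX-pulsed libraries split for endothelium-like cells, at 5.48% and 26.4%, and for trophoblast-like cells, at 6.98% and 38.7%, with the lower value in replicate 1 each time. The class with the most high-share cells was cluster 12, led by Anpep, Dio3 and Tff3, with 228 of 1345 (17.0%), nearly all in the controls. In cluster 19, with a median of 1054 UMIs and Lars2 and Gm42418 as its leading genes, the proportion was 6.06%, 27.8%, 6.15% and 3.88%. Cluster 17, with a median of 1163 UMIs, came mostly from DUX-pulsed replicate 2, where 29 of its 138 cells were high-share.

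For a test, cells were clustered again without the genes called between high-share and low-share cells, and the share of each of 19 classes among high-share and low-share cells was compared with edgeR over libraries. 0 classes passed after adjustment, and 2 had an unadjusted p under 0.05. Erythroid-like cells made up 0.733% ± 1.05 of high-share cells and 1.8% ± 1.15 of low-share cells (SD, n = 4), lower in 4 of 4 libraries (log2 -1.60, SE 0.65, adjusted p = 0.332 with edgeR). Trophoblast-like cells made up 1.5% ± 1.49 against 0.765% ± 0.904 (log2 1.31, adjusted p = 0.388 with edgeR), and parietal endoderm-like cells 5.46% ± 6.03 against 3.97% ± 5.29, higher in 4 of 4 (adjusted p = 0.493). Restricted to cells with at least 5000 UMIs, both erythroid-like cells (log2 -3.46) and trophoblast-like cells (2.12) passed (adjusted p = 0.00721 for both, edgeR). They then made up 0.217% ± 0.435 and 2.72% ± 3.27 of high-share cells, against 1.81% ± 1.18 and 0.720% ± 0.893 of low-share cells (SD, n = 4). Even before that restriction these classes held 6 and 15 high-share cells over all libraries, so both calls rest on few cells.

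**Figure D5:**
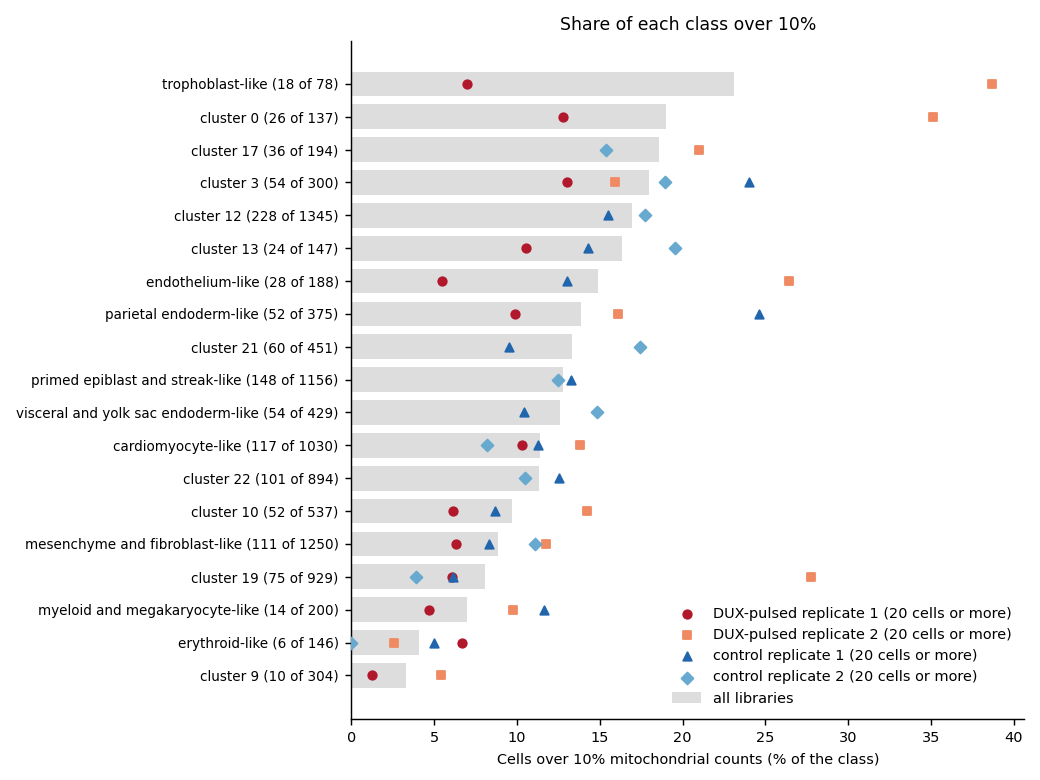
Percentage of each class over 10% mitochondrial counts (x axis), with grey bars for all libraries together and points for libraries with 20 or more cells of the class. Proportions run from 3.29% in cluster 9 to 23.1% in trophoblast-like cells.

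Within single classes the same comparison could be fitted in 6. In cardiomyocyte-like cells 76 of 11355 genes were higher (0.669%) and 110 lower (0.969%), 1.64% in all. In mesenchyme and fibroblast-like cells 221 of 12189 were higher (1.81%) and 388 lower (3.18%), 5% in all. Cluster 2 held most cardiomyocyte-like cells and cluster 1 most mesenchyme and fibroblast-like cells, in both high-share and low-share cells, but the finer mix differed. Of the 168 cells of cardiomyocyte-like cluster 20, 6 were high-share. In a finer clustering without the called genes, at Leiden resolution 2, 42 of the 64 cells of a cardiomyocyte-like cluster with Cacna2d2, Ttn and Ryr2 among its leading genes were high-share. In parietal endoderm-like cells 22 of 9730 genes were higher (0.226%) and 6 lower (0.0617%), 0.288% in all. Cluster 3 had Dppa5a, Sox2, Foxe1 and Shh among its leading genes. There 25 of 10401 were higher (0.24%) and 38 lower (0.365%), 0.606% in all. Cluster 12, in 3 libraries, had 22 of 12286 higher (0.179%) and 8 lower (0.0651%), 0.244% in all. Cluster 19, in 3 libraries, had 16 of 4550 higher (0.352%) and 1 lower (0.022%), 0.374% in all. Lars2 was higher in 4 of the 6: by 2.03 (SE 0.20) in cardiomyocyte-like cells, 2.06 (SE 0.22) in mesenchyme and fibroblast-like cells, 1.81 in cluster 3 and 1.05 in cluster 12. Tagln fell by 1.16 in cardiomyocyte-like cells and by 1.298 in mesenchyme and fibroblast-like cells, but rose by 0.66 in cluster 12. Medians of ribosomal protein genes were negative in all 6 classes, from -0.58 to -0.27, and medians of nuclear-retained RNAs positive in all 6, from 0.19 to 0.71. Hspa1a and Hspa1b were higher by 4.83 and 4.78 in mesenchyme and fibroblast-like cells, with the high levels of DUX-pulsed replicate 2 described above. There 36 of 76 ribosomal protein genes fell and 5 of 8 nuclear-retained RNAs rose. Median UMIs differed within these classes, at 7055 in high-share against 23691 in low-share cardiomyocyte-like cells and 7543 against 27552 in mesenchyme and fibroblast-like cells, but hardly in cluster 19, at 1069 against 1047. The part of depth in these calls was tested no further than by restriction to at least 5000 UMIs. That gave 75 higher and 113 lower in mesenchyme and fibroblast-like cells over 4 libraries, 54 and 25 in cardiomyocyte-like cells and 20 and 41 in cluster 3, both of them with 3 libraries left, so that depth and the loss of a library cannot be told apart there.

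Mitotic genes were called lower in 3 of the 6 classes. Of 20 G2 and M genes, 7 fell in cluster 3 (median -0.81), 5 in mesenchyme and fibroblast-like cells (-0.37) and 2 in cardiomyocyte-like cells (-0.50). With edgeR 0 were called in parietal endoderm-like cells (-0.48), cluster 12 (0.06) and cluster 19 (-0.04), with 7, 2 and 1 at an unadjusted p under 0.05. Ube2c was lower by 1.60 in cluster 3, 0.85 in mesenchyme and fibroblast-like cells and 1.03 in cardiomyocyte-like cells. Markers of other lineages also differed within classes. In cardiomyocyte-like cells 6 of 12 parietal endoderm markers were higher, with Lama1 at 3.74 (SE 0.39), and Rhox5 at 3.22. In parietal endoderm-like cells 3 of 5 erythroid markers, Hba-x, Hbb-y and Hba-a1, were higher by between 3.77 and 4.22, and 6 of 11 cardiomyocyte markers were higher. Over all cells the globins ran the other way. Doublets and free RNA were not tested as sources of these values. Counts within classes rested on single libraries: mesenchyme and fibroblast-like calls numbered 39 without DUX-pulsed replicate 1 and 178 without DUX-pulsed replicate 2. In cardiomyocyte-like cells there were 43 calls without DUX-pulsed replicate 1, 607 without DUX-pulsed replicate 2, 35 without control replicate 1 and 111 without control replicate 2. In parietal endoderm-like cells there were 4 without DUX-pulsed replicate 1 and 68 without control replicate 2. Cluster 3 kept a count of 27 without either DUX-pulsed library and 37 without control replicate 2. In cluster 12 there were 310 without DUX-pulsed replicate 2, 2 without control replicate 1 and 1 without control replicate 2, and in cluster 19 there were 8, 0 and 41 without the same libraries.

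The difference between high-share and low-share cells was itself compared between DUX-pulsed and control libraries as an interaction term. It passed for 10 of 16242 genes (0.0616%), 9 higher (0.0554%) and 1 lower (0.00616%), with 1904 at an unadjusted p under 0.05. With the replicate number as a block, which no label ties to shared material, edgeR called 0 (1171 at an unadjusted p under 0.05), and DESeq2 without it called 26 higher and 93 lower. Among the 10 genes called by edgeR with the library block were 4 of the 18 cardiomyocyte markers. Postn, a matrix protein of fibroblasts and heart valves (chromosome 3, 54361109 to 54391037 on the plus strand), had 153 and 315 CPM in high-share cells of the DUX-pulsed libraries, against 144 and 330 CPM in their low-share cells. In the controls it had 3.30 and 2.95 CPM in high-share cells, against 11.8 and 12.3 CPM in low-share cells. The values lay close together in the DUX-pulsed libraries and further apart in the controls (interaction log2 1.95, SE 0.19, adjusted p = 0.0124 with edgeR). Actc1, cardiac alpha actin, had 967 and 1798 CPM in high-share cells of the DUX-pulsed libraries, against 1172 and 1785 CPM in their low-share cells. In the controls it had 132 and 115 CPM in high-share cells, against 340 and 355 CPM in low-share cells (1.36, SE 0.15, adjusted p = 0.0124 with edgeR).

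The interaction was positive too for Myl3, a ventricular myosin light chain (1.45), Actn2, the alpha actinin of the sarcomere (1.71), Ppp1r14c, a phosphatase inhibitor (1.797), and Myh7, a myosin heavy chain (1.66). Myh7 had 1694 and 1734 CPM in high-share cells of the DUX-pulsed libraries, against 990 and 1312 CPM in their low-share cells, and 142 and 73.1 CPM in high-share cells of the controls, against 254 and 183 CPM in their low-share cells. In cells over 15% its interaction was -0.40. Lum, Spon1 and Gm26870 were the other genes called higher and Tyrobp, a signalling adaptor of myeloid cells, the gene called lower (-3.75). Tyrobp had 33.9 and 25.8 CPM in high-share cells of the DUX-pulsed libraries, against 66.8 and 31.1 CPM in their low-share cells. In the controls it had 4.18 and 0 CPM, against 0.463 and 0.0136 CPM, so the control side rests on replicate 1. Myeloid and megakaryocyte-like cluster 16, led by Tyrobp and C1qb, held 2 cells of control replicate 1, 1 of them high-share, and 0 of control replicate 2. Cardiomyocyte-like cells made up 26.9% and 17.6% of high-share cells after the DUX pulse, against 19.8% and 20.8% of their low-share cells, and 4.30% and 2.06% of high-share cells in the controls, against 4.75% and 3.41% of their low-share cells. The part of that mix in the interaction was not tested. Leaving out DUX-pulsed replicate 1 or 2 gave 275 and 635 calls, leaving out control replicate 1 gave 33, and over 12% there were 4.

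High-share cells also differed between the DUX-pulsed and control cultures. Of 12375 nuclear genes tested in the 4 high-share sums, 1021 were higher in DUX-pulsed libraries (8.25%) and 510 lower (4.12%) with edgeR, 12.4% in all, and 3675 had an unadjusted p under 0.05. Cardiomyocyte markers were higher for 17 of 18, mesenchymal markers for 11 of 16 and myeloid and megakaryocyte markers for 8 of 14, while primed epiblast and streak markers were lower for 9 of 12. Visceral and yolk sac endoderm markers were lower for 6 of 20 and higher for 1. The macrophage complement gene C1qb had 104 and 92 UMIs in high-share cells of the DUX-pulsed libraries and 0 in both controls, at least 255-fold higher when 3 counts are allowed over the pooled control group. In low-share cells C1qb had 3275 and 780 UMIs in the DUX-pulsed libraries and 0 and 5 in the controls. Cluster 16, of which it was a leading gene, held 4 and 2 high-share cells of the DUX-pulsed libraries and 1 and 0 of the controls. Ddx3y, a gene of the Y chromosome, had 42 and 55 UMIs against 0 in both controls, at least 126-fold higher. Its count was also 0 in the low-share cells of both control libraries, against 553 and 511 UMIs in low-share cells of the DUX-pulsed libraries. The groups thus differed in RNA of a Y chromosome gene, and the labels give no clone for either. A difference between the starting cells therefore cannot be told apart from the DUX pulse, in this comparison or in the interaction. Vrtn had 0 UMIs in high-share cells of both DUX-pulsed libraries and 174 and 180 in the controls, at least 30.2-fold lower.

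Among genes counted in both groups, the CPM below is scaled over the high-share sums alone. Tnni3, a cardiac troponin, had 165 and 216 CPM in high-share cells of the DUX-pulsed libraries, against 5.58 and 0.932 CPM in the controls (log2 5.85, SE 0.64, adjusted p = 0.0046). The thyrotropin-releasing hormone gene Trh had 2.53 and 0.835 CPM against 139 and 92.2 CPM (log2 -6.15, SE 0.45, adjusted p = 0.00293). Neither gene had overlapping groups, which the naming rule required. Lum, Tnni2, Postn and Cx3cr1 were the other named rises, at log2 values from 6.05 to 7.595. The epiblast growth factor genes Fgf5 and Nodal, the transcription factor gene Lhx1, the tight junction gene Cldn9 and Lrmda were the other named falls, at log2 values from -6.88 to -4.62. The counts rested on single libraries, with 1581 higher and 1206 lower without DUX-pulsed replicate 1, 501 and 133 without control replicate 1, and 188 and 27 without control replicate 2.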

How the data were processed

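Whole-number counts of UMIs per gene and cell were deposited by the authors as 1 table with no normalization, with the cells of all 4 libraries side by side. The submitters' processing notes name Cell Ranger 2.2.0, STAR and build mm10. Any filter on cells and any removal of doublets by the authors are not given in the sources used here. The fewest genes in any cell were 501, and the highest mitochondrial share was 19.98%. The table held 20284 genes, and totals per library were 67434186 and 39183346 UMIs (DUX-pulsed) and 106314108 and 87812122 UMIs (control). 8 barcodes were shared between libraries (16 cells, 1 of them high-share). Scrublet, run through scanpy 1.11.5, called 0.228% of cells and has not worked, so doublets were kept and the top 5% of its scores removed as an alternative.

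The members, the gene lists and the tests were chosen with earlier results of these data known. Counts were summed per library and class of cells and tested with edgeR 4.0.16 (quasi-likelihood, TMM, library block), for nuclear genes that reached 10 counts in 2 or more sums and 40 over all sums, at a Benjamini-Hochberg threshold of 0.05. DESeq2 1.42.0 and limma 3.58.1 were alternatives, the last on log2 CPM with a pseudocount of 1. The scripts were tested on simulated data. P-values and SDs measure the spread between libraries. The rule named the 12 largest rises and falls of high-share minus low-share cells among called genes with at least 20 CPM in the higher class and 1 sign in 4 libraries, the 8 largest rises and falls of DUX-pulsed minus control, the 6 interaction genes of smallest p, and 2 members per list. Genes of the mitochondrial and ribosomal families, predicted genes and names ending in Rik were left out of naming by size. Other members called within a list, and Gm42418, Gm26917, Gm26870, Cep295, Tyrobp, Spon1, Hspa1a, Malat1 and Mki67, were named after their values were seen. Results for 4 genes that the rule or the lists named are not reported here. 7 listed genes were not found in the table under the listed symbol. Cells were clustered with 10000 counts per cell, log1p, 2000 variable genes, 30 components, 15 neighbours and Leiden resolution 1. A cluster took a class name only with at least 3 raised markers of a list and at least 3 in its top 30 genes. It also needed more of them in its top 10 genes than of any other list. A pluripotency name was withheld where Foxe1 and Shh, genes of anterior foregut endoderm, were both in the top 10, as in cluster 3.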

Additional observations from a re-analysis of the deposited data

Results flagged for a closer look

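The high-share effect differed between DUX-pulsed and control libraries for 10 genes by the interaction test in edgeR. The 6 with the smallest p were Postn (1.95), Myl3 (1.45), Actc1 (1.36), Myh7 (1.66), Ppp1r14c (1.797) and Actn2 (1.71), each a log2 difference of effects, DUX-pulsed minus control. All 6 were positive, but that of Myh7 was -0.40 over 15%, and none of the 10 was called with the replicate block. Fewer cardiomyocyte-like cells stood among the high-share cells of the controls, as their shares in the report show, and the part of that mix was not tested.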

How the results depend on the processing

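For high-share minus low-share cells, the 220 higher and 521 lower genes became 535 and 1128 with DESeq2, 547 and 1500 without the count filter, 592 and 95 with the plain sum, 117 and 208 with mt- genes in the library size, 931 and 1882 over 12%, 1074 and 2245 over 15%, 43 and 123 with at least 5000 UMIs, 127 and 306 without the top Scrublet scores, and 0 and 0 without the library block (955 at an unadjusted p under 0.05). Against cells at 5% or less 639 were higher. Re-weighting low-share cells to the cluster mix gave 581 and 40 in limma, against 0 and 1 with limma and no re-weighting (4287 at an unadjusted p under 0.05), a fit chosen after seeing the data. Leaving out 1 library gave 14 to 414 higher and 59 to 859 lower. Of 56 named genes called, 33 lost the call without DUX-pulsed replicate 2 and 32 without DUX-pulsed replicate 1, 23 without control replicate 1 and 1 without control replicate 2.

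For DUX-pulsed minus control, over 15% gave 316 higher and 176 lower, and at least 5000 UMIs gave 323 lower. Leaving out 1 library gave 188 to 1581 and 27 to 1206. The replicate numbers do not pair the libraries by any label, and same-numbered deviations correlated at 0.093 in high-share cells and -0.015 for the high-share effect. With the replicate block there were 833 higher and 393 lower, and the block ended all 10 interaction calls, leaving 0 (1171 at an unadjusted p under 0.05). The interaction count was 119 with DESeq2 (26 higher, 93 lower), 502 without the filter, 4 over 12%, 42 over 15% and 11 to 635 with 1 library left out.

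Within classes, leaving out 1 library gave 35 to 607 calls in cardiomyocyte-like cells, 39 to 550 in mesenchyme and fibroblast-like cells, 4 to 68 in parietal endoderm-like cells, 1 to 310 in cluster 12, 0 to 41 in cluster 19 and 27 to 61 in cluster 3. With at least 5000 UMIs there were 79 and 188 in the cardiomyocyte-like and mesenchyme and fibroblast-like cells and 61 in cluster 3, the first and last with 3 libraries, and no fit could be made in parietal endoderm-like cells, cluster 12 or cluster 19. The DUX-pulsed minus control share moved to -12.2 percentage points over 8%, and to between -4.75 and 3.29 with 1 library left out. Class shares past the threshold numbered 2 at Leiden resolution 2 and 2 with at least 5000 UMIs, and 0 with any 1 library left out. Mitochondrial genes with 1 sign in every library numbered 5, and 5 to 8 with 1 library left out. The thinned difference in genes was 13.25 at 1000 UMIs, 81.0 at 5000 and 23.8 to 46.8 with 1 library left out.

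Signs turned for Apoa2 (-0.22), Krt15 (-0.53), Mfap4 (0.17) and the interaction of Myh7 (-0.40) over 15%, for Lefty2 (-1.08 over 12%, -2.33 over 15%), Perp (-0.051, -0.24) and Elavl3 (-0.94, -7.47), for Elavl3 also without control replicate 1 (-0.0068, up to 1.40 with another library left out) and when re-weighted (-0.25), and for Tubb3 without DUX-pulsed replicate 2 (-0.14, up to 0.87 with another left out). The cause was not tested. Of 1353 values of named genes for high-share minus low-share under alternatives, 946 kept sign and side of the threshold, 314 lost the call, 81 gained it and 12 turned, those given here. For DUX-pulsed minus control 185 of 186 kept both. High-share sums of the DUX-pulsed libraries hold the fewest cells, which limits what they show for low genes.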
